A study of Mus musculus with 11 samples.

Results

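Glucose uptake and glycolysis were followed in mouse embryonic hearts through 10 genes: the glucose transporters Slc2a1 and Slc2a3, the hexokinases Hk1 and Hk2, the phosphofructokinases Pfkl and Pfkp, the aldolase Aldoa, the phosphoglycerate kinase Pgk1, the lactate dehydrogenase Ldha and the pyruvate dehydrogenase kinase Pdk1. All probe sets annotated to 1 of these symbols and to no other gene were taken, which gave 29 of the 45037 probe sets tested. A probe set is the group of short probes that reads 1 transcript, and a gene with several probe sets was read on the one with the highest mean signal over all arrays. No filter on signal was applied, so all 29 probe sets of the 10 genes, out of 18193 genes with a symbol of their own, entered the tests.

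The hearts were pooled at embryonic day 9.5, and their RNA was hybridised to 11 one-colour arrays in groups set by the labelled genotype. Controls were Gata4 flox/+; Nkx2-5 +/+ (n = 3), double heterozygotes were Gata4 flox/+; Nkx2-5 cre/+ (n = 3), and conditional knockouts, abbreviated CKO, were Gata4 flox/flox; Nkx2-5 cre/+ (n = 5). Every group thus carried at least 1 floxed Gata4 allele, a Gata4 copy that Cre recombinase can delete, and the cre/+ groups carried Cre in place of 1 Nkx2-5 allele. Cre made from the Nkx2-5 locus acts in cardiac progenitors and their descendants, so other cells of a pooled heart can keep Gata4. The CKO-control contrast therefore joins deletion of Gata4 with the loss of an Nkx2-5 allele, while CKO and double heterozygous hearts differ by 1 floxed Gata4 allele. How many hearts went into a pool, and whether replicates came from separate pools, is not stated, so p-values describe only the spread among these arrays, part or all of which may be technical.

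Signals are given as log2(intensity + 16) after quantile normalisation, a scale that understates the changes of dim probe sets. Gata4 itself read a mean of 8.98 in controls, 9.31 in double heterozygotes and 9.43 in CKO arrays on its brightest probe set, so it was not lower in CKO arrays. On that probe set it was called higher than in controls, at 0.45 (limma adjusted p 0.0321), with every CKO array above the controls. Against double heterozygotes it was not called, at 0.12 (limma adjusted p 0.668). The labels do not say whether that probe set reads the deleted part, so it is no test of the genotypes, and the group is named CKO-labelled from here on. The dimmer Gata4 probe set had means of 8.03, 8.44 and 8.12 in the same order, and the CKO-labelled arrays overlapped both other groups. The overlap with controls came from CKO-labelled replicate 2 alone. It read 6.42, against 8.26 to 8.81 in the other CKO-labelled arrays and 7.98 to 8.15 in controls. Nkx2-5, of which 1 allele is replaced by Cre, ran as labelled: its means were 9.87, 9.48 and 9.34, with every array of both cre/+ groups below the controls, although neither difference passed the test (limma adjusted p 0.0990 and 1). CKO-labelled replicate 2 had a 3′ to 5′ difference of 1.05 between beta-actin control probe sets, against 0.27 to 0.45 in the other 10 arrays, a sign of more degraded RNA. The mean deposited intensity was 166.4 to 175.6 in 10 arrays and 117.2 in CKO-labelled replicate 3. The number of arrays limits the precision of every value. All 8 cardiomyocyte markers checked, sarcomere genes such as Tnnt2, Myl7 and Actc1 among them, had control means between 9.73 and 13.06. In RNA of whole hearts, fewer cells of a type and less RNA per cell cannot be told apart.

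Glycolysis breaks glucose down to pyruvate in the cytosol and yields ATP without oxygen. Facilitative transporters bring glucose into the cell, hexokinases trap it as glucose 6-phosphate, and phosphofructokinase commits it to the pathway. Aldolase splits the sugar, phosphoglycerate kinase makes ATP, and lactate dehydrogenase turns pyruvate to lactate, which keeps the pathway supplied with NAD+. Pyruvate dehydrogenase kinases phosphorylate and inhibit pyruvate dehydrogenase, the complex that passes pyruvate on to the mitochondrial citric acid cycle. The early embryonic heart draws much of its energy from glycolysis, and many of these genes are textbook targets of the hypoxia-inducible factors (HIF).

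The promoters of these genes are shown first because HIF binds DNA at a short core, ACGTG or GCGTG, and the windows below show where such cores lie before the start site of the members printed. The 250 bases before an annotated start were taken from RefSeq (build GRCm38.p6) and searched for both strings on both strands, where they read CACGT and CACGC in reverse. The strings overlap in CACGTG, which holds ACGTG on each strand. Of the 10 genes, 9 matched an entry, with 14 windows, because some genes have several starts. Each sequence runs 5′ to 3′ on the gene's strand in lower case, and capitals mark the matches. The windows printed belong to 5 genes whose signal was called higher below and to Pgk1 and Ldha, which were not called on their brightest probe set.
Slc2a1 promoter, chr4:119108495-119108744, plus strand: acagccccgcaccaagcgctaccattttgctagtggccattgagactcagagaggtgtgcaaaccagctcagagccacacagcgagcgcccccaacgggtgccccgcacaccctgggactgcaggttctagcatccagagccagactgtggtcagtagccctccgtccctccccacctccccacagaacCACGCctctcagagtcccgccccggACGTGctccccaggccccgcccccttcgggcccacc
Hk2 promoter, chr6:82774455-82774704, minus strand: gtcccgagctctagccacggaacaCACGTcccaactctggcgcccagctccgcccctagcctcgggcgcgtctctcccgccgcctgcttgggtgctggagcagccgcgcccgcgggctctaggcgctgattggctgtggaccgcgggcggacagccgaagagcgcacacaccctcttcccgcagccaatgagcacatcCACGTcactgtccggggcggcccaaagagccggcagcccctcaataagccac
Pfkl promoter, chr10:78009808-78010057, minus strand: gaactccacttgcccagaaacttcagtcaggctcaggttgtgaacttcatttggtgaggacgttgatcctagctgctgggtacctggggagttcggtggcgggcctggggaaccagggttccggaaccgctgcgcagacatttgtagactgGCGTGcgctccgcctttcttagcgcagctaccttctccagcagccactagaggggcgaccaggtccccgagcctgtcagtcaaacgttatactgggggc
Pfkp promoter, chr13:6648772-6649021, minus strand: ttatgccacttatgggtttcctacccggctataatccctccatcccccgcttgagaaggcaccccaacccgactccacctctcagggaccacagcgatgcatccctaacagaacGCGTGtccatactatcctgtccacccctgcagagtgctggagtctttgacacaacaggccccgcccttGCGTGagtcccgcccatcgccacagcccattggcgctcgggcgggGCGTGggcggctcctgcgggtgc
Pdk1 promoter, chr2:71872974-71873223, plus strand: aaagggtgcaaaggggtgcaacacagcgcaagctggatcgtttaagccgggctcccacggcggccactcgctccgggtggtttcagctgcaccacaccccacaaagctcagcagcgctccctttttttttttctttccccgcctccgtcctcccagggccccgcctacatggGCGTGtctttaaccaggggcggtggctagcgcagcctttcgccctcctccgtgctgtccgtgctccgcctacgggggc
Pgk1 promoter, chrX:106186850-106187099, plus strand: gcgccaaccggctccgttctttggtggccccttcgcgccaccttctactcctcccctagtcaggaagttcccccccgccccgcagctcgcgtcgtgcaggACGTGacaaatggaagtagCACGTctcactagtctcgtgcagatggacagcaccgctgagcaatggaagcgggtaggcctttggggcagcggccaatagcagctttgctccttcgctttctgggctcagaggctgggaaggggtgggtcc
Ldha promoter, chr7:46845554-46845803, plus strand: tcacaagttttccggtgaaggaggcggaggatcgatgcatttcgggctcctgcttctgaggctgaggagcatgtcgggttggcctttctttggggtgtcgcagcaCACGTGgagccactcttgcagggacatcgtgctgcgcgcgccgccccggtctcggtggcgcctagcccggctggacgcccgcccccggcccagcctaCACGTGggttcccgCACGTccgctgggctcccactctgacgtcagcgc

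A core was present in the window of every matched gene (9 of 9), and in 11 of the 14 windows (78.6%). Among all windows of the same length in the table, 38.6% (12679 of 32851) held one, as did 41.5% of genes (11226 of 27025). In the windows printed, Ldha had 5 matches, Pfkp had 3, Slc2a1, Hk2 and Pgk1 had 2, and Pfkl and Pdk1 had 1. Of the windows not printed, the second of Ldha had 1 match and that of Pdk1 0, the 2 of Hk1 had 0 and 3, and the 3 of Aldoa had 0, 1 and 1. The last 2 Aldoa windows overlap and hold the same match, so it counts in 2 of the 11 windows. The 5 matches of Ldha lay in 3 stretches, because CACGTG holds ACGTG on each strand, and the 3 matches of Pfkp also lay in 3. Whether the matches bear on the signal was not tested. A match describes letters in a window and is no binding site.

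In CKO-labelled hearts the glucose transporters Slc2a1 and Slc2a3, the hexokinase Hk2, the phosphofructokinases Pfkl and Pfkp and the kinase Pdk1 rose over control, by 1.29 to 2.18 fold, while Hk1, Aldoa, Pgk1 and Ldha did not pass the test. That is 6 of 10 genes higher and 0 lower at an adjusted p under 0.05 (limma, Benjamini-Hochberg over 45037 probe sets), against a background of 2.09% of all genes called in either direction and 1.25% called higher. On all probe sets, 12 of 29 were called higher and 0 lower, against 1.4% of all probe sets called in either direction and 0.837% called higher. The median log2 difference of the 10 genes was 0.44, beside -0.02 over all genes. All 10 means were higher, although Hk1 and Ldha turned lower on the deposited scale (-0.14 and -0.05) and with each array centred on its median (-0.15 and -0.06), and Hk1 also with centring on the brighter probe sets (-0.018).

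Against double heterozygous hearts, Slc2a3, Hk2 and Pfkp rose, which is 3 of 10 genes, beside 0.55% of all genes called in either direction and 0.445% called higher. The median difference of the 10 genes was 0.36, beside -0.01 over all genes, and 7 of 29 probe sets were called higher, against 0.349% of all called in either direction and 0.286% called higher. Between double heterozygous and control hearts no probe set was called by limma (0% of 45037); at an unadjusted p under 0.05 there were 530 of 18193 genes, 1 of them a member, Slc2a3. Any pair of these comparisons shares a group of arrays, so they are not independent of each other. A moderated F-test over the 3 genotypes called Slc2a1, Slc2a3, Hk2, Pfkl, Pfkp and Pdk1, 6 of 10 genes against 1.47% of all genes.

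**Figure D1:**
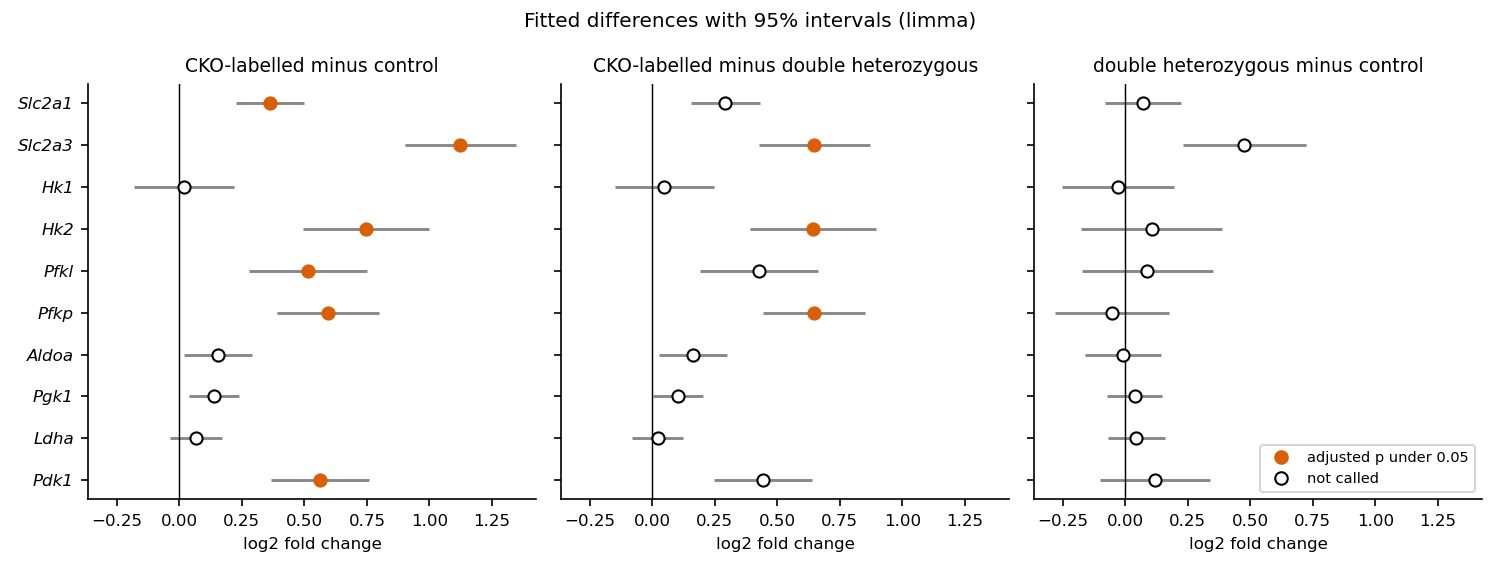
Fitted log2 differences between genotype groups for the 10 genes, each on its brightest probe set. Points are fitted values with 95% intervals, and filled points have an adjusted p under 0.05 in limma. Slc2a3 lies farthest to the right against control at 1.12, Hk1 and Ldha lie at 0.02 and 0.07, and no point of the double heterozygous against control comparison is filled.

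Slc2a3 encodes GLUT3, a transporter of high glucose affinity, and of the 10 genes it differed most from control; against double heterozygotes Slc2a3 and Pfkp both stood at 0.65. Its brightest probe set (1437052_s_at) read 10.26, 10.45 and 10.41 in the control arrays, 10.69, 10.82 and 11.04 in the double heterozygous arrays and 11.28, 11.40, 11.44, 11.58 and 11.77 in the CKO-labelled arrays. The 3 groups did not overlap, with double heterozygotes between controls and CKO-labelled hearts. CKO-labelled hearts exceeded controls 2.18-fold (log2 1.12, SE 0.104, limma adjusted p 8.39e-05) and double heterozygotes 1.57-fold (log2 0.65, limma adjusted p 0.0121). Double heterozygotes stood 0.48 above controls on the log2 scale, which did not pass the test (limma unadjusted p 0.000925, adjusted p 1). The call against double heterozygotes was lost without double heterozygous array 1 (0.57) or 2 (0.63), with the log2 difference in parentheses.

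Slc2a3 has 4 probe sets, and the calls rest on those whose suffix, _s_at or _x_at, marks probes that may also read related transcripts. The second of them, 1455898_x_at, gave log2 1.25 against control (limma adjusted p 8.39e-05) and 0.78 against double heterozygotes (0.00770). The dimmer 1421924_at and 1427770_a_at gave 0.78 and 0.42 against control and were not called (limma adjusted p 0.443 and 0.802). In both dim probe sets 1 array decided the value: CKO-labelled replicate 2, the array with the large 3′ to 5′ difference, read 5.76 and 4.30 where the other CKO-labelled arrays read 7.98 to 8.14 and 6.996 to 7.33. Without that array both were called against control, at 1.24 (limma adjusted p 9.00e-05) and 1.002 (0.0018); the part of RNA quality in this was not tested.

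Slc2a1 encodes GLUT1, the broadly expressed transporter for basal glucose uptake. Its brightest probe set (1434773_a_at) read 12.04, 12.14 and 11.97 in controls, 12.15, 12.03 and 12.19 in double heterozygotes and 12.41, 12.40, 12.29, 12.55 and 12.43 in CKO-labelled hearts. All CKO-labelled arrays lay above both other groups, which overlapped each other. The rise over control was smaller than that of Slc2a3, at 1.29-fold (log2 0.36, SE 0.0639, limma adjusted p 0.00974), and the 0.29 over double heterozygotes did not pass the test (limma adjusted p 0.0679). The 2 other probe sets gave 0.44 and 0.49 against control and 0.30 and 0.34 against double heterozygotes, all called (limma adjusted p 0.000843, 0.000570, 0.0312 and 0.0220). On the brightest probe set the call against control was lost without control array 1 (0.36) or 3 (0.32), and a call against double heterozygotes appeared without CKO-labelled array 3 (0.32).

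**Figure D2:**
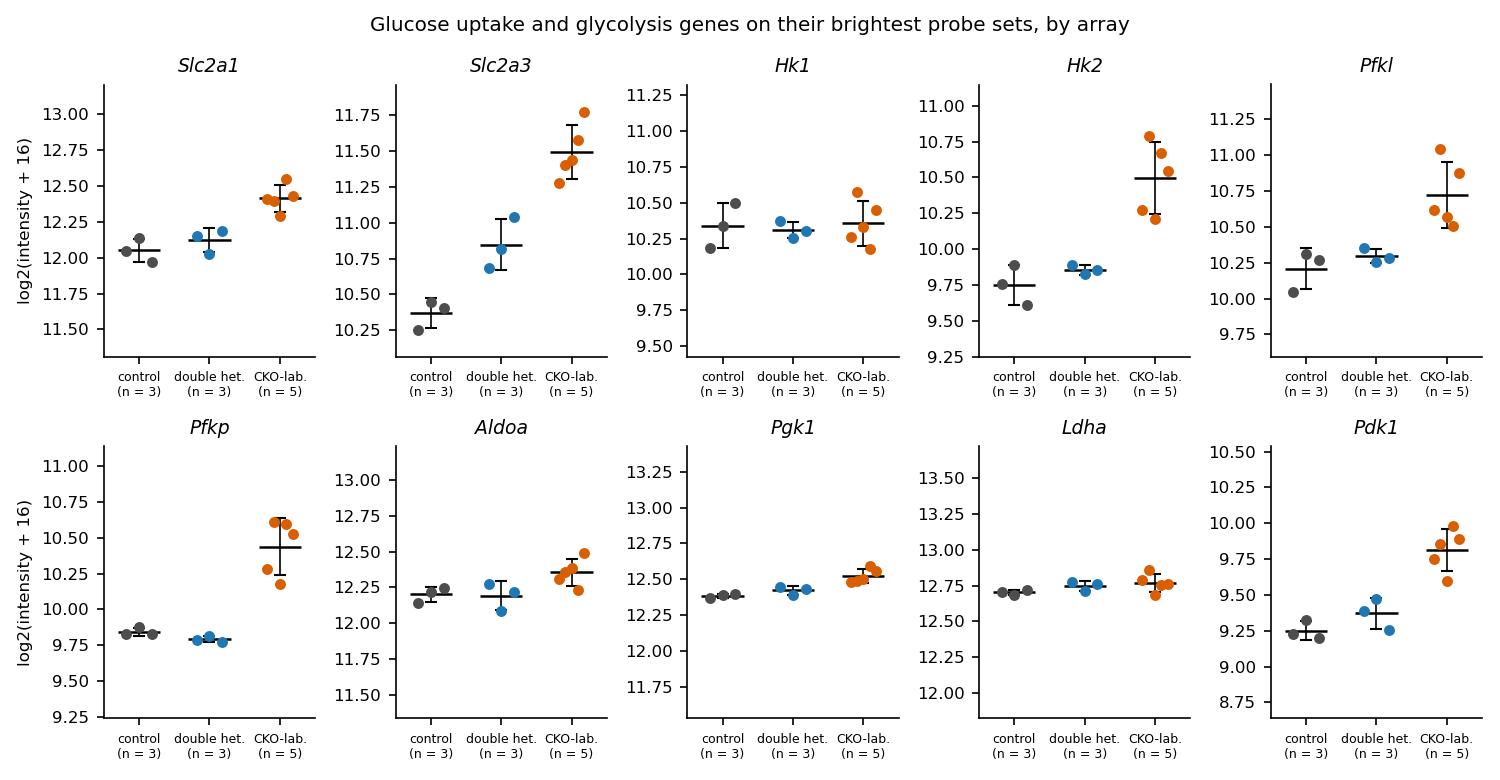
Normalised signal, log2(intensity + 16), of the 10 genes on their brightest probe sets in the control, double heterozygous and CKO-labelled (CKO-lab.) arrays. Each point is an array, the bar is the group mean and the whisker its SD, and all panels span the same number of log2 units. The 5 CKO-labelled arrays lie above all controls for Slc2a1, Slc2a3, Hk2, Pfkl, Pfkp, Pgk1 and Pdk1, and overlap them for Hk1, Aldoa and Ldha.

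Of the hexokinases, which phosphorylate glucose on entry, Hk2 rose and Hk1 did not pass the test. Hk2, the isoform of muscle and other insulin-sensitive tissue, has 1 probe set (1422612_at), which read 9.75, 9.89 and 9.61 in controls, 9.89, 9.82 and 9.85 in double heterozygotes and 10.27, 10.79, 10.21, 10.67 and 10.55 in CKO-labelled hearts. The CKO-labelled arrays lay above every array of the other groups, and spread more widely than they did. Hk2 was 1.68-fold higher than in controls (log2 0.75, SE 0.118, limma adjusted p 0.00459) and 1.56-fold higher than in double heterozygotes (log2 0.64, SE 0.118, limma adjusted p 0.0292), while double heterozygotes and controls differed by 0.11. The call against double heterozygotes was lost without control array 1 (0.64), double heterozygous array 1 (0.66), 2 (0.63) or 3 (0.64), or CKO-labelled array 4 (0.60) or 5 (0.63). Hk1, the broadly expressed isoform, read 10.18, 10.34 and 10.50 in controls, 10.37, 10.26 and 10.30 in double heterozygotes and 10.26, 10.57, 10.33, 10.18 and 10.45 in CKO-labelled hearts on its brightest probe set (1437974_a_at), so the groups overlapped throughout. The difference from control was 0.02 with a 95% interval of -0.18 to 0.22, and from double heterozygotes 0.05 with an interval of -0.15 to 0.25; a second probe set gave -0.25 and -0.34, not called.

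The phosphofructokinases, which carry out the committed step of glycolysis, both rose over control. Pfkl, the liver-type subunit, read 10.05, 10.31 and 10.27 in controls, 10.35, 10.25 and 10.28 in double heterozygotes and 10.62, 11.04, 10.57, 10.51 and 10.88 in CKO-labelled hearts (1439148_a_at). Its CKO-labelled arrays lay above both other groups. It was 1.43-fold higher than in controls (log2 0.51, SE 0.110, limma adjusted p 0.0322), and the 0.43 over double heterozygotes did not pass the test (limma adjusted p 0.130). This call was the least stable of the 6: it was lost without control array 1 (0.43), 2 (0.56) or 3 (0.55), double heterozygous array 1 (0.51), 2 (0.51) or 3 (0.51), or CKO-labelled array 5 (0.47). Its second probe set (1450269_a_at) was called at 0.52 (limma adjusted p 0.0116), and the dim 1453541_at gave -0.08.

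Pfkp, the platelet-type subunit, read 9.83, 9.87 and 9.83 in controls, 9.78, 9.81 and 9.77 in double heterozygotes and 10.28, 10.61, 10.17, 10.60 and 10.53 in CKO-labelled hearts (1416069_at). The control and double heterozygous arrays lay close together, with every double heterozygote just below the controls, and all CKO-labelled arrays lay above them. Pfkp was 1.51-fold higher than in controls (log2 0.59, SE 0.0958, limma adjusted p 0.00519) and 1.57-fold higher than in double heterozygotes (log2 0.65, limma adjusted p 0.00770). The call against double heterozygotes was lost without double heterozygous array 1 (0.65) or 2 (0.66). The other probe sets, both dimmer, gave -0.02 and 0.74 and were not called; in the first of them (1430634_a_at) CKO-labelled replicate 2 read 6.71 against 8.07 to 8.59 in the other CKO-labelled arrays, and without it the difference was 0.30.

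The later enzymes Aldoa, Pgk1 and Ldha had the brightest probe sets of the 10 genes, and none was called on them. Pgk1, which makes the first ATP of the pathway, read 12.37, 12.39 and 12.39 in controls, 12.45, 12.39 and 12.43 in double heterozygotes and 12.48, 12.49, 12.51, 12.59 and 12.55 in CKO-labelled hearts (1417864_at). The CKO-labelled arrays lay above both other groups by a small margin. The difference from control was 0.14 (95% interval 0.04 to 0.24, limma adjusted p 0.180), and from double heterozygotes 0.10 (0.0022 to 0.20, limma adjusted p 0.408). The other probe sets, both _x_at, gave 0.32 and 0.25 against control, of which the first (1438640_x_at) was called (limma adjusted p 0.0219).

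Ldha, which turns pyruvate to lactate, read 12.70, 12.69 and 12.72 in controls, 12.77, 12.71 and 12.76 in double heterozygotes and 12.79, 12.86, 12.69, 12.75 and 12.76 in CKO-labelled hearts on its only probe set (1419737_a_at). The 3 groups overlapped. The difference from control was 0.07 (95% interval -0.04 to 0.17, limma adjusted p 0.618), and from double heterozygotes 0.02 (-0.08 to 0.12). Only 31 of the 45037 probe sets had a higher mean signal than that of Ldha. Aldoa, the muscle-type aldolase, is read by 5 probe sets, all _x_at, and the brightest (1416921_x_at) read 12.14, 12.22 and 12.24 in controls, 12.28, 12.08 and 12.22 in double heterozygotes and 12.31, 12.36, 12.39, 12.23 and 12.49 in CKO-labelled hearts. The groups overlapped in 1 CKO-labelled array. Its difference from control was 0.15 (95% interval 0.02 to 0.29, limma adjusted p 0.308), and its 5 probe sets ranged from 0.15 to 0.29, none called.

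Pdk1, which inhibits pyruvate dehydrogenase and so slows the entry of pyruvate into the citric acid cycle, rose over control. Its brightest probe set (1423748_at) read 9.23, 9.33 and 9.20 in controls, 9.39, 9.47 and 9.25 in double heterozygotes and 9.75, 9.85, 9.60, 9.98 and 9.89 in CKO-labelled hearts. The CKO-labelled arrays lay above both other groups. Pdk1 was 1.48-fold higher than in controls (log2 0.56, SE 0.0921, limma adjusted p 0.00592), and the 0.44 over double heterozygotes did not pass the test (limma adjusted p 0.0571). The call against control was lost without control array 1 (0.55) or 3 (0.54), and a call against double heterozygotes appeared without CKO-labelled array 3 (0.50). Of the other 3 probe sets, 1435836_at was called in both comparisons at 0.68 and 0.61 (limma adjusted p 0.00529 and 0.0275), while 1423747_a_at at 0.54 and the dim 1434974_at at 0.74 were not called against control.

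Across the 10 genes, the CKO-labelled arrays lay wholly above the controls for 7 genes and below them for 0, beside 12.3% of all genes whose arrays did not overlap in either direction and 4.7% with the CKO-labelled arrays above. Against double heterozygotes 7 genes lay wholly above, beside 9.19% in either direction and 3.65% above. Double heterozygotes lay wholly above controls for Slc2a3 and wholly below them for Pfkp, 2 of 10 genes, beside 11.1% of all genes. Averaged over the 10 genes, the log2 difference from the control mean was 0.31 to 0.53 in the CKO-labelled arrays, 0.05 to 0.10 in the double heterozygotes and -0.06 to 0.05 in the controls. On all probe sets, 26 of 29 had higher means in CKO-labelled than in control arrays, and without CKO-labelled replicate 2 the calls were 15 of 29 against control and 9 of 29 against double heterozygotes. Over all 45037 probe sets, calls without that array also rose, from 632 to 884 against control and from 157 to 205 against double heterozygotes. In single-array exclusions, 3 of 10 genes were called against control without control replicate 1 or control replicate 3. Of all 45037 probe sets, 167 and 188 were called there. Against double heterozygotes 0 of 10 were called without double heterozygous replicate 1 or 2, and 5 of 10 without CKO-labelled replicate 3. Over all probe sets the calls were 15, 35 and 416 in these exclusions.

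**Figure D3:**
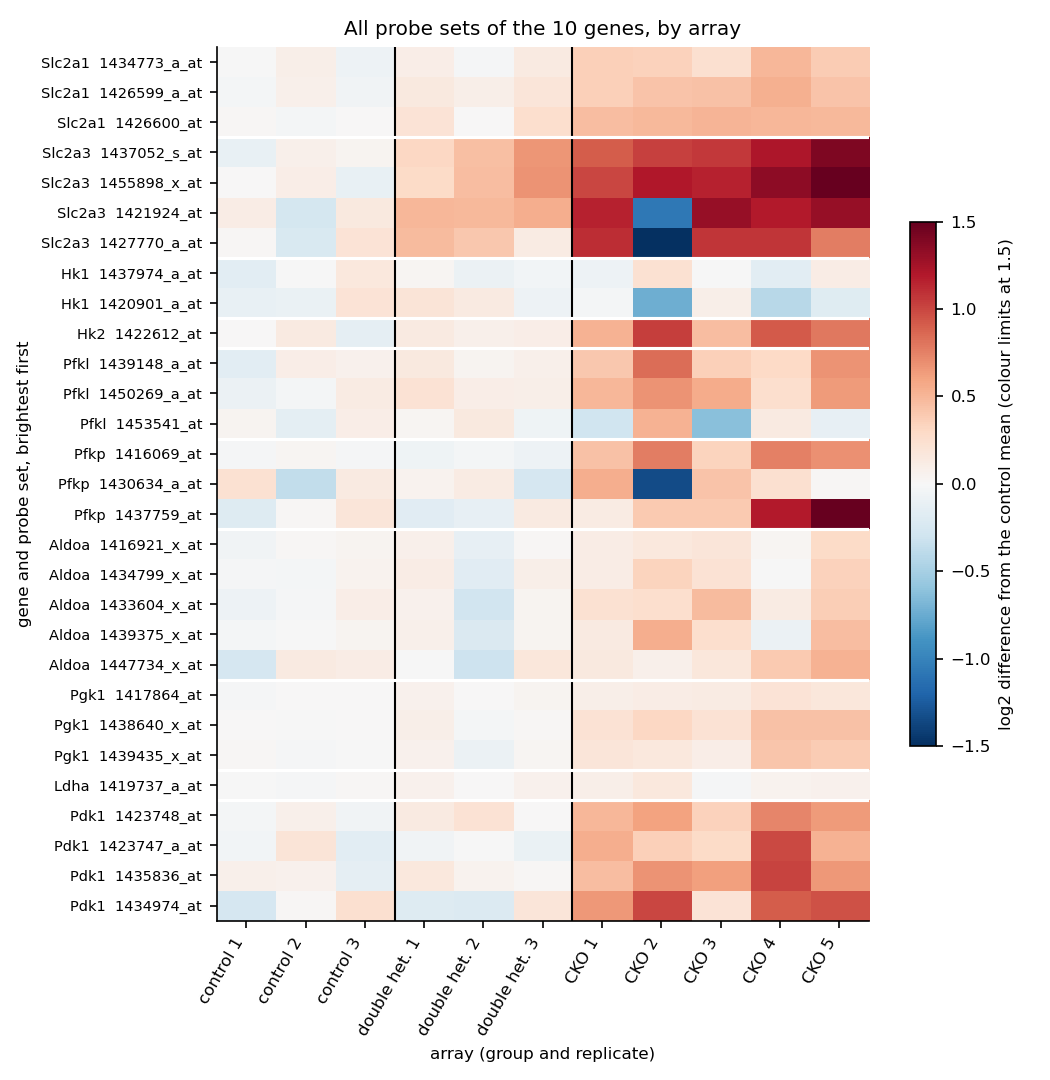
Log2 difference from the control mean for all 29 probe sets (rows, grouped by gene) in all 11 arrays (columns, grouped by genotype). Colour runs from -1.5 to 1.5 log2 units. The CKO-labelled columns are higher than the controls over most rows, with 26 of 29 group means above the control, and CKO-labelled replicate 2 stands apart in the dim probe sets of Slc2a3 and in 1430634_a_at of Pfkp.

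Isoforms of the same step did not all move by the same amount. To compare them, the difference between the probe sets of a pair was taken within each array and compared between groups. The difference itself has no meaning as a ratio of transcripts. Its change between groups is free only of a log2 shift that both probe sets share, and a shift that depends on brightness stays in. Hk2 rose relative to Hk1 by 0.73 over control and 0.59 over double heterozygotes on the log2 scale (two-sided exact permutation test, p 0.0357 each, 0.0429 after Benjamini-Hochberg over 6 tests). Slc2a1 changed relative to Slc2a3 by -0.76 over control and -0.35 over double heterozygotes (exact permutation p 0.0357, adjusted 0.0429, each). Pfkp and Pfkl differed in their change over control by 0.08 (exact permutation p 0.75), and over double heterozygotes by 0.22 (exact permutation p 0.0357, adjusted 0.0429). With 5 arrays against 3, p 0.0357 is the smallest the test can give, and in these cases the groups do not overlap. For Pfkp minus Pfkl the margin was narrow: the lowest CKO-labelled array read -0.434 and the highest double heterozygote -0.441. All adjusted values of 0.0429 rest on that margin too, because 5 of the 6 tests must reach the smallest p for any to pass. The glucose transporter pair rests on the _s_at probe set of Slc2a3: when _s_at and _x_at probe sets were passed over, an alternative added after seeing the data, its change was -0.41 over control and 0.03 over double heterozygotes.

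**Figure D4:**
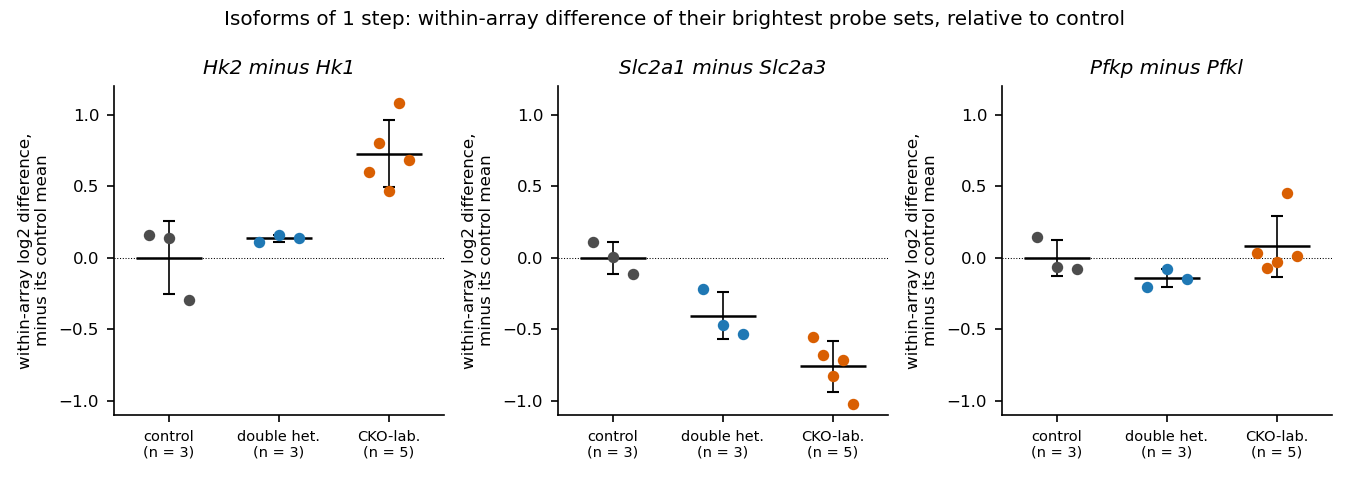
Within-array log2 difference between paired isoforms (Hk2 minus Hk1, Slc2a1 minus Slc2a3, Pfkp minus Pfkl), drawn relative to its mean in control arrays. Each point is an array and the bar is the group mean. CKO-labelled arrays lie above the controls for Hk2 minus Hk1 and below them for Slc2a1 minus Slc2a3, with mean shifts of 0.73 and -0.76, and overlap them for Pfkp minus Pfkl.

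Of 10 other glycolysis enzymes matched to the arrays, 1 rose over control and 0 fell, beside 1.25% of all genes called higher. The median log2 difference of these enzymes from control was 0.18, with 9 of 10 means higher. On the deposited scale it was 0.03 and with median centring 0.02, with 5 of 10 higher on each. Against double heterozygotes the median was 0.09, and it turned to -0.04 as deposited and -0.09 with median centring. The enzyme called was Aldoc, the brain-type aldolase, higher by 0.76 (limma adjusted p 0.00663) and by 0.94 over double heterozygotes (0.00442). Its call against control was lost without control array 1 (0.74) or 3 (0.71), and that against double heterozygotes without double heterozygous array 1 (0.88); both also failed without scaling (0.62 and 0.84), with median centring (0.62 and 0.79) and on the mean of its probe sets (0.39 and 0.42). Of 9 other glucose transporters and hexokinases 0 were called (median -0.07); the insulin-responsive transporter Slc2a4 gave 0.51 (limma adjusted p 0.0866) and Hkdc1 -0.35 (0.414). Of 4 enzymes that make or break fructose 2,6-bisphosphate, the activator of phosphofructokinase, 0 were called (median -0.17), with Pfkfb3 at 0.67 (limma adjusted p 0.167) and Tigar at -0.56 (0.142). Of 6 genes of lactate and monocarboxylate handling 0 were called (median 0.03); Ldhb, the heart-type lactate dehydrogenase subunit, gave -0.48 (limma adjusted p 0.0732) with all CKO-labelled arrays below the controls, and Bsg, the partner of lactate transporters, 0.35 (0.0815).

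The list of pyruvate dehydrogenase subunits, its other kinases and phosphatases and the pyruvate carrier Mpc1 had lower means in CKO-labelled than in control hearts for all 11 genes matched (10 of 11 with centring on the brighter probe sets), with a median of -0.24 beside -0.02 over all genes. Only Pdhx, the component that binds the E3 subunit, passed the test, at -0.42 (limma adjusted p 0.0417), so 1 of 11 fell and 0 rose, beside 0.841% of all genes called lower. That call was lost without control array 1 (-0.48), 2 (-0.36) or 3 (-0.41), double heterozygous array 1 (-0.42), 2 (-0.42) or 3 (-0.42), or CKO-labelled array 4 (-0.42) or 5 (-0.42). In gluconeogenesis 0 of 7 genes were called (median 0.12), with Pcx, which carboxylates pyruvate, at 0.29 (limma adjusted p 0.482) and Fbp2 at 0.24 (0.671). In the pentose phosphate pathway 0 of 6 were called (median -0.09), with Rpe at -0.57 (limma adjusted p 0.0880) and Taldo1 at -0.25 (0.346).

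Glycogen genes had 3 of 10 called higher and 0 lower (median 0.02), beside 1.25% of all genes called higher. They were the glycogen synthase Gys1 at 0.72 (limma adjusted p 0.0420), the glycogen phosphorylase Pygl at 0.59 (0.00626) and Pgm1, a phosphoglucomutase, at 0.36 (0.0263). All 3 calls were lost without scaling (0.57, 0.45 and 0.21) and with median centring (0.56, 0.44 and 0.20), where the list median turned to -0.07 and -0.08. The Gys1 call against control was lost without control array 1 (0.63), 2 (0.77) or 3 (0.76), double heterozygous array 1 (0.72), 2 (0.72) or 3 (0.72), or CKO-labelled array 4 (0.73) or 5 (0.68). Against control, Pygl and Pgm1 were lost in fewer exclusions than Gys1. The Pygl call against control was lost without control array 1 (0.56) or 3 (0.53). The Pgm1 call against control was lost without control array 1 (0.35), 2 (0.37) or 3 (0.34), double heterozygous array 1 (0.36), or CKO-labelled array 5 (0.33). Against double heterozygotes 2 of the 10 were called, Pygl at 0.62 (limma adjusted p 0.0116) and Pgm1 at 0.38 (0.0368), beside 0.445% of all genes called higher. The Pygl call against double heterozygotes was lost without double heterozygous array 1 (0.64), 2 (0.66) or 3 (0.55). The Pgm1 call against double heterozygotes was lost without control array 1 (0.38), 2 (0.38) or 3 (0.38), double heterozygous array 1 (0.39), 2 (0.37) or 3 (0.38), or CKO-labelled array 4 (0.38) or 5 (0.36).

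HIF factors and their regulators had 3 of 9 called higher and 0 lower (median 0.31), beside 1.25% of all genes called higher. They were Egln3, an oxygen-dependent HIF prolyl hydroxylase and itself a HIF target, Epas1, which encodes HIF-2 alpha, at 1.01 (limma adjusted p 0.00401), and Egln1, another HIF prolyl hydroxylase, at 0.75 (0.00290). These calls against control were kept in all 11 single-array exclusions, but on the deposited scale Epas1 (0.86) and Egln1 (0.60) were not called. Egln3 was 2.91-fold higher than in controls, at 1.54 (limma adjusted p 0.00138). Hif1a, which encodes HIF-1 alpha, gave -0.09 (limma adjusted p 0.727) and is named here after its value was seen. Against double heterozygotes Egln3 and Egln1 were called, at 1.42 and 0.75 (limma adjusted p 0.00770 each), and Epas1 was not, at 0.67 (0.0905). Over all genes 0.445% were called higher in that comparison. The Egln3 call against double heterozygotes was lost without double heterozygous array 1 (1.34). The Egln1 call against double heterozygotes was lost without double heterozygous array 1 (0.71) or 2 (0.73).

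**Figure D5:**
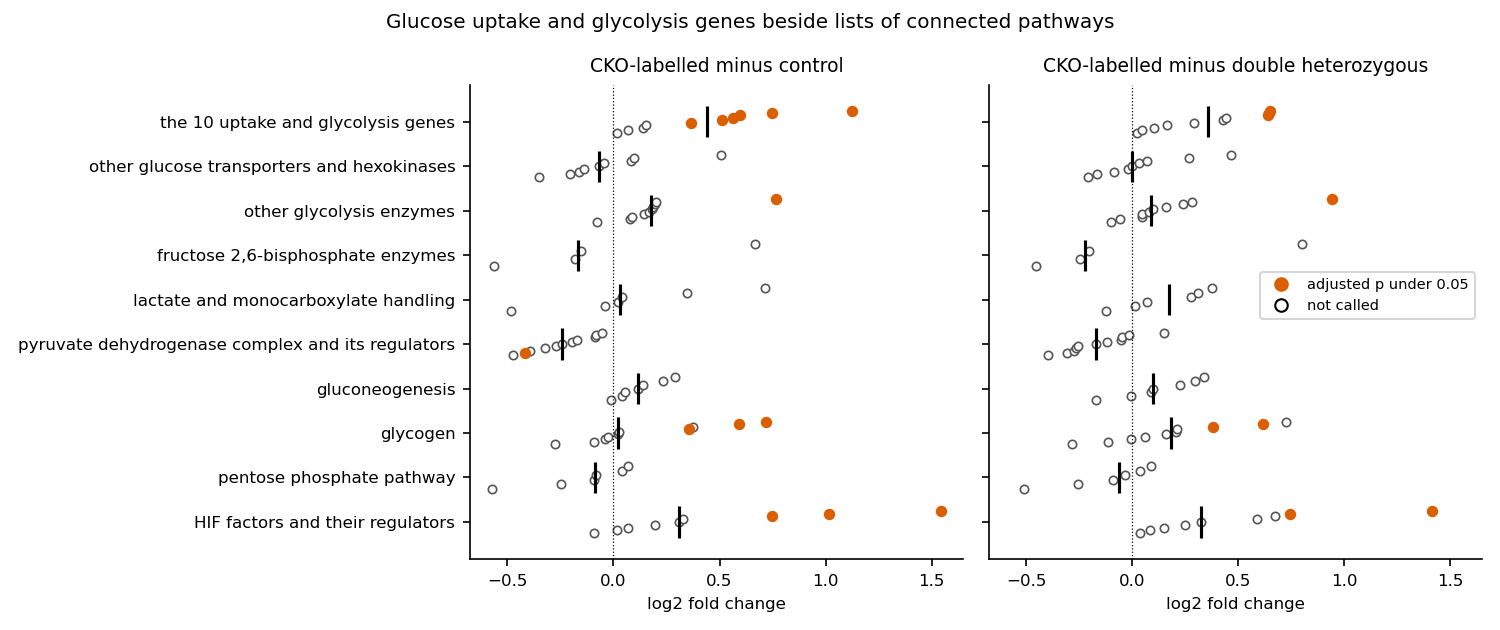
Log2 difference of CKO-labelled hearts from control (left) and from double heterozygous hearts (right) for every gene of the 10 members and of 9 lists from glucose and HIF biology, each gene on its brightest probe set. Points are genes, filled points have an adjusted p under 0.05 in limma, and the vertical bar is the list median. Against control, the members have a median of 0.44, the pyruvate dehydrogenase list lies wholly below 0 with a median of -0.24, and Egln3 is the highest point at 1.54. Against double heterozygotes, the members have a median of 0.36, and 1 of the 11 genes of the pyruvate dehydrogenase list lies above 0, with a list median of -0.17.

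The genes outside these lists whose pattern was nearest to the mean of the 10 members were Unc5b, a netrin receptor, Hip1, a clathrin adaptor, Ptbp3, a splicing regulator, the kinase Taok3 and Vcan, which encodes versican of the cardiac jelly. Likeness was the mean absolute log2 distance between a gene's differences from its control mean and those of the member mean, over the 11 arrays and 18067 candidate genes, and it was 0.04 to 0.06 for these 5. Their log2 differences from control were 0.49 for Unc5b and Hip1, 0.35 for Ptbp3, 0.42 for Taok3 and 0.43 for Vcan. They were chosen for this pattern, so these values carry no test.

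Markers of other cells in the heart moved with the groups as well. The summed intensity of 8 endothelial and endocardial markers was 2627 to 3101 in CKO-labelled, 2266 to 2348 in double heterozygous and 2346 to 2434 in control arrays, so the CKO-labelled arrays lay above the others. Of these 8, the VEGF receptor Kdr and the cadherin Cdh5 were called higher than in controls, at 0.68 (limma adjusted p 0.00678) and 0.63 (limma adjusted p 0.0189), and the angiopoietin receptor Tek lower, at -0.65 (limma adjusted p 0.00150). Over all genes, 1.25% were called higher than in controls and 0.841% lower. The Kdr call was lost without control array 1 (0.63) or 2 (0.65). The Cdh5 call was lost without control array 1 (0.60), 2 (0.65) or 3 (0.63), or CKO-labelled array 5 (0.57). The Tek call was kept in all 11 single-array exclusions. The 7 proepicardial and mesothelial markers summed to 419 to 1032 in CKO-labelled, 584 to 939 in double heterozygous and 1196 to 1294 in control arrays. Among them Tcf21 and Lrrn4 were called lower, at -1.31 (limma adjusted p 0.0171) and -1.20 (limma adjusted p 0.00619). Of the 7 means, 6 were lower and 1 higher than in controls. Against double heterozygotes 5 were lower and 2 higher, with 0 called. All 7 were lower in double heterozygotes than in controls (median -0.61), with 0 called. The Tcf21 call was lost without control array 1 (-1.28), 2 (-1.31) or 3 (-1.34). The Lrrn4 call was lost without control array 2 (-1.16) or 3 (-1.12). The part of these cells in the differences of the 10 genes was not tested.

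The 9 erythroid markers, embryonic globins among them, summed to 18817 to 24198 in CKO-labelled, 19495 to 22679 in double heterozygous and 19129 to 22389 in control arrays; all 9 means were higher in CKO-labelled than in control hearts (median 0.23), and 0 of 9 were called. The 8 cardiomyocyte markers summed to 48385 to 52068, 49689 to 51129 and 49834 to 50459 in the same order of groups. Of their means, 3 were higher and 5 lower than in controls (median -0.01), and 2 and 6 with median centring (median -0.14). Only 1 of 8, the myosin heavy chain Myh7, was called, at 0.27 (limma adjusted p 0.0154). Over all genes 2.09% were called in either direction. The Myh7 call was lost without control array 1 (0.29), 2 (0.26) or 3 (0.28). The erythroid and cardiomyocyte sums both overlapped between the groups. The 7 foregut markers summed to 98.4 to 265 and the 5 neural crest and neural markers to 93.5 to 281 over all 11 arrays, with CKO-labelled replicate 3 highest in both, and 0 of 7 and 0 of 5 were called; all 5 neural crest and neural means were higher than in controls (median 0.22). No detection calls were used, so no marker could be called absent, and the part of these cells in the differences of the 10 genes was not tested.

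Scaling between arrays bears on all of these counts. Without scaling (the deposited values) or with each array centred on its median, Slc2a3 was the only 1 of the 10 genes called against control, and 0 were called against double heterozygotes. On the deposited scale the log2 differences from control were 0.25 for Slc2a1, 0.59 for Hk2, 0.36 for Pfkl, 0.44 for Pfkp and 0.41 for Pdk1, and with median centring 0.24, 0.58, 0.35, 0.43 and 0.41. Among the marker genes, Kdr, Cdh5 and Myh7 lost their calls against control on both scales (0.54, 0.48 and 0.17 as deposited, 0.54, 0.47 and 0.16 with median centring), and Pdhx lost its call on the deposited scale (-0.56). Against double heterozygotes Egln1 lost its call on both (0.61 and 0.56) and Egln3 as deposited (1.33), as did Pygl (0.50 and 0.45) and Pgm1 (0.26 and 0.21) on both. Over all probe sets, 59.7% of 632 calls against control were higher with quantile normalisation, 48.9% of 92 on the deposited scale and 39.2% of 362 with median centring. Against double heterozygotes the share was 82.2% of 157 calls, 66.2% of 65 with median centring, 86.7% of 15 on the deposited scale and 85.4% of 164 with centring on the brighter probe sets.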

How the data were processed

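RNA of pooled hearts was measured on 11 one-colour arrays. TRIzol total RNA was amplified and biotin-labelled using the Ovation kit that the labels' protocols name. The authors deposited linear intensities, 1 value per probe set and array, summarised with PLIER per the submitters' processing notes; the sources used here give no PLIER version, scaling or genome build. Gene symbols came from GEO's platform annotation (34945 probe sets with 1 symbol, 932 with several, 9160 with none).

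In R 4.3.3, 64 control probe sets were left out, and 45037 were quantile-normalised as log2(intensity + 16). limma 3.58.1 fitted 1 mean per genotype over all 11 arrays (8 residual degrees of freedom, trended variance), with Benjamini-Hochberg adjustment within each comparison. The script was tested on simulated data. Isoform pairs were tested by exact permutation (scipy 1.17.1).

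The members and lists were chosen with earlier results of these data known. Named were all 10 members; from each pathway list the called genes or else up to 2 of smallest p; called markers; and the 5 genes nearest in pattern. Some genes of the lists are not reported here. Alternatives covered scaling, offset, dim probe sets, the choice of probe set, variance prior, array weights, the replicate block and leaving out arrays. The series text names a one-way analysis of variance; the moderated F-test stands for it, and a plain one-way F was an alternative.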

Additional observations from a re-analysis of the deposited data

Results flagged for a closer look

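CKO-labelled replicate 2 lay far from the other 4 CKO-labelled arrays in 3 of the 29 probe sets: its gap to the nearest array, over the whole range of the group, exceeded 0.710, the limit for 5 samples. For Slc2a3 it read 5.76 on 1421924_at, where the others read 7.98 to 8.14, and 4.30 on 1427770_a_at, where the others read 6.996 to 7.33. For Pfkp it read 6.71 on 1430634_a_at, where the others read 8.07 to 8.59. Chance places about 1 in 20 groups past this limit. The same array had the large 3′ to 5′ differences of the control probe sets, 1.05 for beta-actin and 0.38 for Gapdh, against 0.27 to 0.45 and -0.15 to -0.01 in the other arrays; their part in these values was not tested.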

How the results depend on the processing

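Counts of called members, 6 of 10 against control, 3 of 10 against double heterozygotes and 6 of 10 by the F-test, were 1, 0 and 1 without scaling, and likewise with median centring. The plain one-way F also called 1 of 10, beside 122 of all 45037 probe sets. Without the intensity trend 0 were called against double heterozygotes and 3 by the F-test, beside 53 and 198 of all probe sets. With probe sets averaged per gene 3 were called against control and 3 by the F-test, beside 456 and 366 of 18193 genes. More were called against double heterozygotes with dim probe sets left out (5), with array weights (6) and without CKO-labelled replicates 2 and 3 (5). Calls over all probe sets also rose in these settings, to 235 of 22518, 613 of 45037 and 637 of 45037, from 157 of 45037. Replicate numbers showed no sign of pairing the arrays, although 9 same-number pairs are too few to settle it. Same-number arrays of different groups correlated at -0.056 to 0.15 in their deviations from the group means, with 1 of 9 pairs over 0.1. Arrays with different numbers correlated at -0.14 to 0.18, with 2 of 30 pairs over 0.1. With the replicate block, 4 were called against control, 2 against double heterozygotes, 0 between double heterozygotes and controls, and 3 by the F-test. Over all 45037 probe sets the calls were 265, 65, 0 and 157 in the same order. The median difference against control was 0.30 without scaling and 0.29 with median centring; against double heterozygotes it was 0.26 and 0.21, 0.29 on the mean of probe sets, and 0.28 passing over _x_at and _s_at probe sets (chosen after seeing the data). Leaving out 1 array gave 3 to 6 calls against control, 0 to 5 against double heterozygotes, 4 to 6 by the F-test and 0 between double heterozygotes and controls.

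Hk1 had no settled direction. Its difference from control was -0.14 (no scaling), -0.15 (median centring), -0.018 (centring on the brighter probe sets, chosen after seeing the data), -0.016 (array weights), -0.12 (mean of probe sets) and -0.044 (without CKO-labelled replicates 2 and 3), and ranged from -0.059 to 0.097 with 1 array left out. From double heterozygotes it was -0.077, -0.12 and -0.15 without scaling, with median centring and on the mean of probe sets, -0.014 without CKO-labelled replicates 2 and 3, and -0.0056 to 0.094 with 1 array left out. Between double heterozygotes and controls it was 0.027 on the mean of probe sets and -0.11 to 0.048 with 1 array left out. Ldha turned to -0.049 and -0.058 against control, and to -0.064 and -0.11 against double heterozygotes, without scaling and with median centring; the difference from double heterozygotes ranged over -0.00060 to 0.043 with 1 array left out. Pgk1 turned to -0.020 against double heterozygotes with median centring. Aldoa in double heterozygotes against control turned to 0.00021 with centring on the brighter probe sets and ranged over -0.051 to 0.046 with 1 array left out.

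The isoform pairs cannot pass the adjusted threshold when 1 array is left out, nor unless 5 of the 6 tests reach the smallest p, so losses of their calls say nothing about stability. Leaving out 1 array, Hk2 against Hk1 ranged over 0.58 to 0.81 (control) and 0.50 to 0.66 (double heterozygotes), Slc2a1 against Slc2a3 over -0.82 to -0.69 and -0.42 to -0.26, and Pfkp against Pfkl over -0.013 to 0.15 and 0.13 to 0.26. In the order Hk2 against Hk1 (control, double heterozygotes), Slc2a1 against Slc2a3 (control, double heterozygotes) and Pfkp against Pfkl (double heterozygotes), they were 0.70, 0.57, -0.74, -0.34 and 0.21 with an offset of 64, 0.73, 0.59, -0.72, -0.31 and 0.21 on the deposited scale, 0.86, 0.79, -0.46, -0.13 and 0.25 on the mean of probe sets, and 0.73, 0.59, -0.41, 0.029 and 0.22 passing over _x_at and _s_at probe sets. The causes of these changes were not tested.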
